A study of Mus musculus with 12 samples.

Results

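Homeostatic microglia signature genes are genes whose high transcript level sets resting microglia, the resident macrophages of the brain, apart from most other macrophages. Here 9 of them, *Tmem119*, *Olfml3*, *Cx3cr1*, *P2ry12*, *P2ry13*, *Gpr34*, *Fcrls*, *Siglech* and *Slc2a5*, were followed in bone marrow-derived macrophages (BMDMs). They were chosen by name from the microglia signature, with their values in activin A-treated and untreated BMDMs already in view. The 9 genes are part of 18376 in the table, and all 9 were among the 14318 with a mean of at least 5 normalized counts over the 12 libraries, the minimum for testing.

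BMDMs were grown from bone marrow progenitors of adult wild-type C57BL/6J mice with 50 ng/ml M-CSF, and all 4 groups carried that cytokine for 6 days. CTRL cells received M-CSF alone. Act cells also received 50 ng/ml human recombinant activin A, a ligand of the TGF-β family. Act+FST cells received 50 ng/ml activin A together with 250 ng/ml follistatin 288 (FST288), a protein that binds and neutralizes activin A, and FST cells received 250 ng/ml FST288 without added activin A. Each group held 3 libraries of poly(A) RNA. The cells came from bone marrow and none came from brain, so the 9 genes are named here for where they are known from and not for the cells measured. Whether the 3 libraries of a group came from separate animals is not given in the sources used here. The spread between them may therefore not be that between animals. Libraries with the same replicate number had positively correlated deviations from their group means in all 18 pairs across groups.

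All 10 genes of a macrophage identity list were measured above the testing minimum, among them *Csf1r*, the M-CSF receptor. All 6 neutrophil and progenitor markers and all 5 classical monocyte markers examined passed that minimum too, so passing it does not check the macrophage label. *Csf1r* averaged 3346 ± 143 normalized counts in CTRL and 3430 ± 94.6 in Act (mean ± SD, n = 3). The summed level of that list ran from 16410 to 18198 in CTRL and from 15871 to 17098 in Act. The totals of the 12 libraries lay between 5643708 and 5955400 normalized counts after the authors' scaling, and the unscaled depth is not known. In bulk RNA, a smaller number of cells that express a gene and less of its RNA per cell cannot be told apart, and this holds for every value below.

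In the brain, TGF-β signalling through SMAD2 and SMAD3 is needed for microglia to acquire and keep these transcripts, and activin A signals through its own receptors to the same SMAD proteins. Several of the products are surface proteins by which microglia sense their surroundings: *Cx3cr1* encodes the receptor for the neuronal chemokine fractalkine, *P2ry12* and *P2ry13* encode receptors for ADP, and *Gpr34* encodes a receptor for lysophosphatidylserine. Microglia taken into culture are known to lose much of this programme, and macrophages from bone marrow are usually low in *Tmem119*.

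On GRCm38 the genes lie on 6 chromosomes, with 4 of them on chromosome 3. RefSeq promoter sequences, taken as the 250 bases upstream of the annotated start, were matched by symbol for 7 of the 9 genes, and *Tmem119* and *Gpr34* had no entry. They were searched on both strands for CAGAC, the core bound by SMAD3 and SMAD4, and for GGAAGT, a core bound by PU.1 and other ETS factors; no CAGAC match overlapped a GGAAGT match. *Olfml3* and *Cx3cr1* are shown because their levels differed most between Act and CTRL, *Fcrls* because it had the highest level per length, and *Slc2a5* because it had the lowest. Capitals mark CAGAC on the printed strand, or GTCTG where it stands on the other one.
Olfml3, chr3:103738002-103738251, minus strand: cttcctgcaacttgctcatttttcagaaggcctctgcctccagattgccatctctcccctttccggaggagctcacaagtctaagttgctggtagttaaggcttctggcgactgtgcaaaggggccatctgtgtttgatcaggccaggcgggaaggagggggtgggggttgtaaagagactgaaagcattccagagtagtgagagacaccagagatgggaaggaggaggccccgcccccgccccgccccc
Cx3cr1, chr9:120068297-120068546, minus strand: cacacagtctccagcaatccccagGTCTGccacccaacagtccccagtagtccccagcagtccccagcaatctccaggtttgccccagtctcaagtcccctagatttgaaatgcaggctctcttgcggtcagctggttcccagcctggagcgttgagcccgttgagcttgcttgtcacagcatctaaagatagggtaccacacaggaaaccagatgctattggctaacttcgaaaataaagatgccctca
Fcrls, chr3:87263525-87263774, minus strand: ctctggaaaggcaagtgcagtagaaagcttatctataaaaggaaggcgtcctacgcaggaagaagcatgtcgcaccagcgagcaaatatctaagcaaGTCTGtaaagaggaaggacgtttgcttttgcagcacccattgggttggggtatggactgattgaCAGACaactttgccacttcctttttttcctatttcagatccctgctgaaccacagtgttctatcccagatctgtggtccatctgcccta
Slc2a5, chr4:150119094-150119343, plus strand: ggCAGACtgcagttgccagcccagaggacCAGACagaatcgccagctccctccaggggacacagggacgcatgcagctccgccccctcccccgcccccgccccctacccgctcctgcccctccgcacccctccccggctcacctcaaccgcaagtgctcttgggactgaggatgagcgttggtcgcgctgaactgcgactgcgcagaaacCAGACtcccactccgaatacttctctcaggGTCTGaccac
The window of *Olfml3* held 0 CAGAC matches, that of *Cx3cr1* 1, that of *Fcrls* 2 and that of *Slc2a5* 4. Of the windows not shown, *P2ry13* held 0, *P2ry12* 1 and *Siglech* 2. CAGAC was present in 42.2% of all 32851 promoter windows of that length. GGAAGT occurred once each in *P2ry12*, *Fcrls* and *Siglech*, against 19.7% of all windows. These letter matches describe the windows and show no binding.

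The 9 genes fell into 3 kinds in untreated BMDMs, as levels per kilobase of exon show. *Fcrls* (475 normalized counts per kb), *Gpr34* (299), *P2ry13* (182) and *P2ry12* (177) already stood in the upper part of the table in CTRL, at the 99.4th, 96.8th, 87.3rd and 86.5th percentiles of 14309 genes with a length. *Cx3cr1* was near the median gene, at 58.2 per kb against a median of 61.6. *Siglech* (16.1), *Olfml3* (9.31), *Tmem119* (6.91) and *Slc2a5* (2.06) were low. In Act the order was *Fcrls* (692 per kb), *Cx3cr1* (479), *Gpr34* (417), *P2ry12* (245), *P2ry13* (228), *Olfml3* (171), *Tmem119* (162), *Siglech* (24.7) and *Slc2a5* (2.45). *Cx3cr1* reached the 99.5th percentile, *Olfml3* the 85.5th and *Tmem119* the 83.8th.

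**Figure D1:**
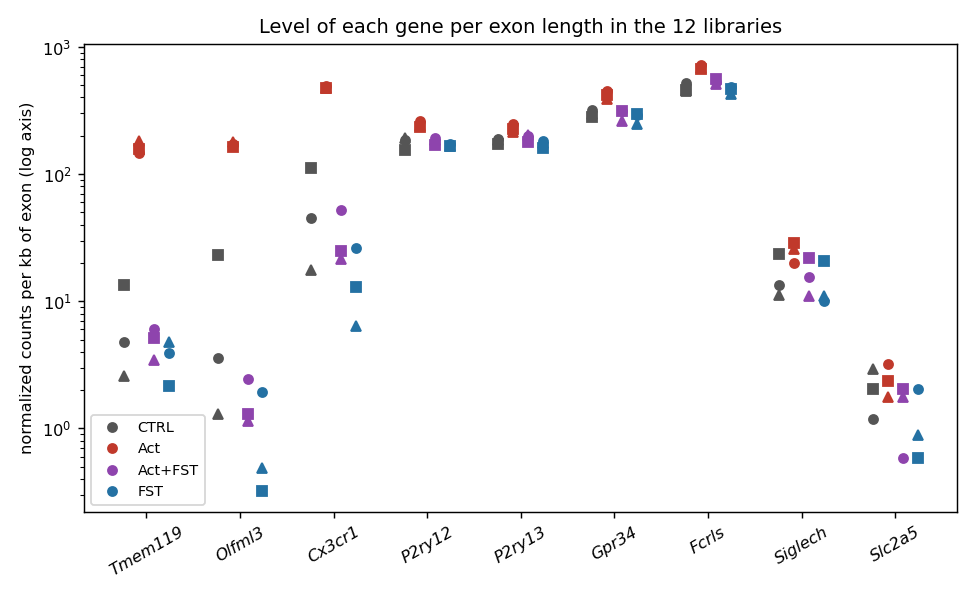
Normalized counts per kilobase of exon (log axis) for each of the 9 genes, with 1 point per library, colour for the group and circle, square or triangle for replicate 1, 2 or 3. *Tmem119*, *Olfml3* and *Cx3cr1* cover a wide range, with Act far above the other groups, which overlap. *P2ry12*, *P2ry13*, *Gpr34* and *Fcrls* stay within a narrow band, also with Act highest, and *Siglech* and *Slc2a5* stay low.

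Neighbouring positions in this order were not all separate. Per kb in CTRL, the libraries of *P2ry13* and *P2ry12* overlapped, and from *Cx3cr1* down to *Slc2a5* each gene's libraries overlapped those of the next gene in the order. In Act the libraries overlapped only between *P2ry12* and *P2ry13* and between *Olfml3* and *Tmem119*. *Fcrls* stood above the other 8 genes in all 12 libraries.

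*Tmem119* encodes a transmembrane protein used as a marker of microglia. Its normalized counts were 11, 31 and 6 in CTRL, 341, 364 and 422 in Act, 14, 12 and 8 in Act+FST, and 9, 5 and 11 in FST. The Act libraries stood apart from the other 9, none of which exceeded 31. *Olfml3* encodes a secreted olfactomedin-like glycoprotein of the extracellular matrix. It was measured at 22, 142 and 8 in CTRL, 1055, 1008 and 1104 in Act, 15, 8 and 7 in Act+FST, and 12, 2 and 3 in FST. Here too the Act group did not overlap any other, and CTRL replicate 2 was the highest of the remaining libraries.

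*Cx3cr1* was measured at 205, 502 and 80 in CTRL, 2207, 2123 and 2142 in Act, 233, 112 and 96 in Act+FST, and 119, 58 and 29 in FST. The 3 Act libraries were close to each other and above all others. The 9 libraries without activin A alone covered a wide range, again with CTRL replicate 2 at the top and the lowest value in FST. In terms of means, *Tmem119* averaged 376 ± 41.7 in Act against 16.0 ± 13.2 in CTRL, *Olfml3* averaged 1056 ± 48.0 against 57.3 ± 73.7, and *Cx3cr1* averaged 2157 ± 44.1 against 262 ± 217 (mean ± SD, n = 3).

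Among the purine and lipid receptors, the differences between groups were smaller and the libraries of a group closer together. *P2ry12*, the ADP receptor through which microglial processes move toward injury, had 469, 393 and 489 normalized counts in CTRL, 671, 596 and 606 in Act, 485, 432 and 476 in Act+FST, and 442, 427 and 425 in FST. All Act libraries were above the other 9. *P2ry13*, a further ADP receptor, had 473, 435 and 470 in CTRL, 621, 572 and 539 in Act, 505, 452 and 512 in Act+FST, and 460, 402 and 445 in FST. The lowest Act library was above the highest of the others by a narrow margin. *Gpr34* had 671, 585 and 619 in CTRL, 932, 868 and 812 in Act, 658, 650 and 551 in Act+FST, and 614, 624 and 515 in FST, again with Act on its own.

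*Fcrls*, an Fc receptor-like scavenger receptor of mouse myeloid cells, was measured at 1207, 1076 and 1046 in CTRL, 1674, 1578 and 1594 in Act, 1233, 1306 and 1189 in Act+FST, and 1129, 1098 and 999 in FST. Act was above all other libraries, and every Act+FST library was above every FST library. *Siglech*, a sialic acid-binding lectin that signals through DAP12 and is also a marker of plasmacytoid dendritic cells, was measured at 45, 80 and 38 in CTRL, 67, 97 and 87 in Act, 52, 74 and 37 in Act+FST, and 34, 70 and 37 in FST. Its groups overlapped, and replicate 2 was the highest library in all 4 groups. *Slc2a5*, the fructose transporter GLUT5, was measured at 4, 7 and 10 in CTRL, 11, 8 and 6 in Act, 2, 7 and 6 in Act+FST, and 7, 2 and 3 in FST. At these few counts the groups overlapped and no difference was detectable.

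The genes were selected on the comparison of Act with CTRL, and Act is also the group set against Act+FST. The following values, adjusted p and counts included, therefore describe the choice and do not test it. On the log2(normalized count + 1) scale, Act exceeded CTRL by 4.75 for *Tmem119* (SE 0.45), 5.09 for *Olfml3* (SE 0.79) and 3.41 for *Cx3cr1* (SE 0.59). These 3 genes met the thresholds of at least 2-fold and a limma adjusted p of at most 0.05, against 2.58% of all tested genes that met them as higher. The fold size of all 3 depended on CTRL replicate 2. The ratio of Act to CTRL means went from 23.5 to 44.2 for *Tmem119*, from 18.4 to 70.4 for *Olfml3* and from 8.22 to 15.1 for *Cx3cr1* when that library was left out.

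The next 4 genes differed by less than 2-fold. Act exceeded CTRL by 0.54 on the log2 scale for *Fcrls* (SE 0.06), 0.48 for *Gpr34* (SE 0.09), 0.47 for *P2ry12* (SE 0.08) and 0.33 for *P2ry13* (SE 0.07). With the adjusted p alone, 7 of the 9 met the threshold, against 10.3% of all tested genes in that direction. The same 7 had all Act libraries above all CTRL libraries, against 18% of genes. *Siglech* differed by 0.67 (SE 0.34) and *Slc2a5* by 0.26 (SE 0.48), and neither met the adjusted p. With the replicate number as a block, 8 of 9 did, since *Siglech* then had a limma adjusted p of 0.011, against 16.3% of all tested genes under the block.

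The estimates for *Fcrls*, *Gpr34* and *Cx3cr1* depended on how reads that share a start position were handled, which the sources used here do not give. No gene in the table averaged above 0.883 normalized counts per exonic base, that of *Psap*, and *Fcrls* reached 0.717 in its highest library. A correction that assumes 1 counted read per start position moved the *Fcrls* difference between Act and CTRL from 0.54 to 0.87 on the log2 scale and that between Act and Act+FST from 0.38 to 0.63, both under 2-fold.

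Against Act+FST, Act was higher by 4.96 for *Tmem119*, 6.65 for *Olfml3* and 3.98 for *Cx3cr1* on the log2 scale. For *Gpr34* the difference was 0.49, for *P2ry12* 0.43, for *Fcrls* 0.38 and for *P2ry13* 0.24. *Siglech* differed by 0.65 and *Slc2a5* by 0.72. The thresholds with the 2-fold limit were met by 3 of 9 genes, against 2.72% of tested genes as higher, and the limma adjusted p alone by 7 of 9, against 11.1%. With the replicate block *Siglech* passed too (adjusted p = 0.012), which made 8 of 9 against 17.1% of tested genes under the block, and *P2ry13* passed in 19 of 23 fits (highest adjusted p = 0.12). The groups did not overlap for 7 of 9, against 17.4%. Both comparisons use the same 3 Act libraries, so these counts and adjusted p values also describe the choice and do not test it.

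The comparisons that leave out the Act libraries were tested. Act+FST against CTRL and FST against CTRL still use the CTRL libraries, whose values were in view when the genes were chosen. Those tests are therefore not independent of the choice. The first comparison asked whether the 9 genes differed from CTRL when activin A was given together with FST288. None of the 9 was called with limma in Act+FST against CTRL, and 0% of the 14318 tested genes were called, or 655 at an unadjusted p under 0.05. With the replicate block, 0 of the 9 and 6 genes of the table were called. Under that block 1404 of the 14318 tested genes had an unadjusted p under 0.05. An unadjusted p under 0.05 was found for 1 of the 9 genes, *Fcrls*, and under the block for 2, *Fcrls* and *Olfml3* (block adjusted p = 0.12 and 0.46 with limma). *Fcrls* averaged 1243 ± 59.1 in Act+FST and 1110 ± 85.6 in CTRL, a log2 difference of 0.16 (95% CI 0.03 to 0.30, limma adjusted p = 0.94), and was higher in 3 of 3 replicate pairs.

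*P2ry12*, *P2ry13* and *Gpr34* differed between Act+FST and CTRL by 0.05, 0.09 and -0.01 on the log2 scale. The 95% intervals reached at most 0.24 above 0 and 0.21 below it. For the 3 genes that differed most between Act and CTRL the intervals were wide. *Tmem119* differed by -0.21 (95% CI -1.19 to 0.77), *Cx3cr1* by -0.57 (-1.85 to 0.71) and *Olfml3* by -1.56 (-3.29 to 0.16). CTRL replicate 2 carried much of this: without it the differences were 0.40 for *Tmem119*, 0.08 for *Cx3cr1* and -0.46 for *Olfml3*. The data therefore leave a range of differences for these 3 genes and do not show equal levels.

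The second comparison asked whether FST288 without added activin A moved the genes. None of the 9 was called with limma in FST against CTRL, and 0% of all tested genes were called, or 299 at an unadjusted p under 0.05. *Olfml3* averaged 5.67 ± 5.51 in FST and 57.3 ± 73.7 in CTRL, and its log2 difference was -2.52 (95% CI -4.25 to -0.80, limma adjusted p = 1). *Cx3cr1* averaged 68.7 ± 45.9 and 262 ± 217, with a log2 difference of -1.77 (95% CI -3.05 to -0.49, limma adjusted p = 1). These were the 2 of 9 genes with an unadjusted p under 0.05, and both were lower in FST in 3 of 3 replicate pairs, although the libraries of the groups overlapped.

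Without CTRL replicate 2 the differences between FST and CTRL were -1.42 for *Olfml3* and -1.11 for *Cx3cr1*. The replicate block left both uncalled, with limma adjusted p values of 0.72 and 0.61. All 9 genes had a log2 difference below 0, against 48.7% of all tested genes, and 4 of 9 (*Olfml3*, *Cx3cr1*, *P2ry13* and *Siglech*) were lower in every replicate pair, against 11.4%. The members are correlated with each other and share the CTRL libraries, so these counts are not 9 separate observations. *P2ry12*, *P2ry13*, *Gpr34* and *Fcrls* differed by -0.06, -0.08, -0.10 and -0.04, each with an interval that includes 0.

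**Figure D2:**
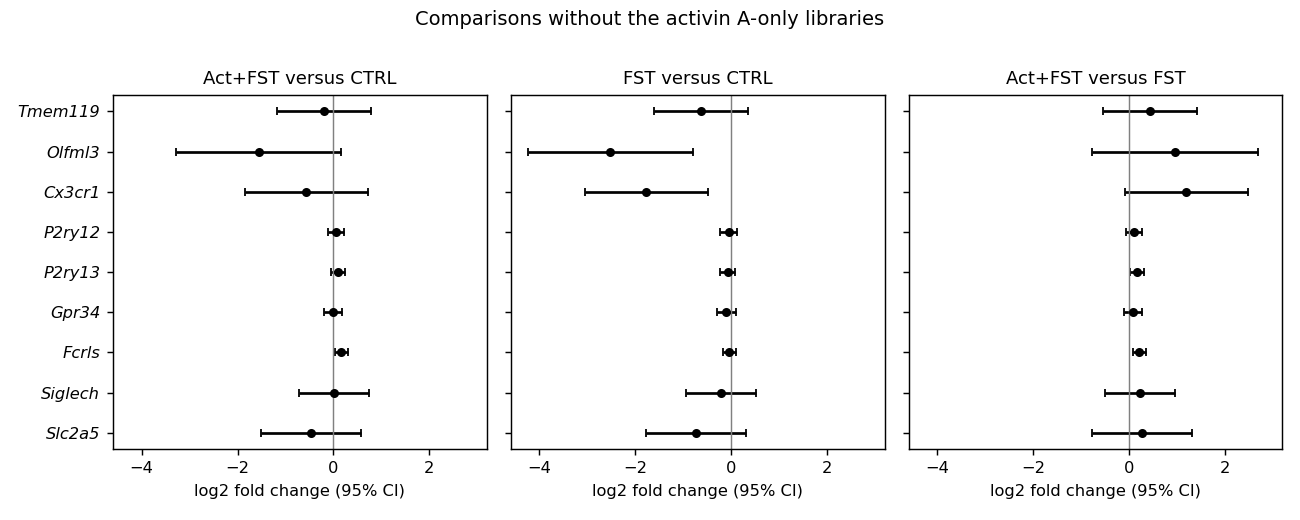
Log2 fold change with its 95% confidence interval from limma for each gene in the 3 comparisons between groups other than Act. The spread behind the intervals is pooled over all 12 libraries. The intervals of *P2ry12*, *P2ry13*, *Gpr34* and *Fcrls* are narrow and close to 0, and those of *Olfml3* and *Cx3cr1* lie below 0 in FST versus CTRL.

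The third comparison, Act+FST against FST, asked what activin A added on top of FST288, and uses neither the Act nor the CTRL libraries. None of the 9 was called with limma, and 0% of all tested genes were called, or 502 at an unadjusted p under 0.05. With the replicate block, 0 of the 9 and 2 genes of the table were called. *Fcrls* was higher in Act+FST by 0.21 on the log2 scale (95% CI 0.07 to 0.34, limma adjusted p = 1), with an adjusted p of 0.075 under the block. *P2ry13* averaged 490 ± 32.8 in Act+FST and 436 ± 30.1 in FST, a log2 difference of 0.17 (95% CI 0.02 to 0.32, limma adjusted p = 1).

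*Cx3cr1* averaged 147 ± 74.9 in Act+FST and 68.7 ± 45.9 in FST, a log2 difference of 1.20 (95% CI -0.08 to 2.48, limma adjusted p = 1), and was higher in 3 of 3 replicate pairs. With the replicate block the 95% interval was 0.33 to 2.07 (limma adjusted p = 0.39). The difference was 0.70 without FST replicate 3 and 1.70 without FST replicate 1. All 9 genes had a log2 difference above 0, against 49.1% of tested genes. Of the 9, 6 (*Olfml3*, *Cx3cr1*, *P2ry12*, *P2ry13*, *Gpr34* and *Fcrls*) were higher in every replicate pair, against 13.8% of tested genes. These sign counts are descriptions, since no single gene passed after adjustment.

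The 9 genes did not vary together outside the Act group. Over the 9 libraries without activin A alone, which share their scaling and 3 replicate numbers, Pearson's r of the log2 values was 0.92 for *Olfml3* with *Cx3cr1*, 0.84 for *Tmem119* with *Olfml3* and 0.72 for *Tmem119* with *Cx3cr1*. *P2ry12* and *P2ry13* had r = 0.76 and *Gpr34* and *Fcrls* had r = 0.64. *Tmem119* and *P2ry12* had r = -0.50, and *Cx3cr1* and *P2ry12* had r = -0.10. *Pmepa1*, a feedback inhibitor of TGF-β family signalling and a direct SMAD target, was set beside the 9 genes over these libraries. It had r = 0.83 with *Cx3cr1*, 0.75 with *Tmem119*, 0.74 with *Olfml3* and 0.73 with *Siglech*. With the others r was 0.41 for *Fcrls*, 0.38 for *Gpr34*, 0.096 for *P2ry13*, -0.0038 for *Slc2a5* and -0.20 for *P2ry12*. The values of *Pmepa1* were 14, 50 and 9 in CTRL, 756, 792 and 871 in Act, 32, 21 and 10 in Act+FST, and 5, 9 and 5 in FST. Its highest library outside Act was CTRL replicate 2 as well.

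The genes most alike in pattern were taken as the 3 with the highest r over the 12 libraries among 10626 others with a mean of at least 50. For *Tmem119* these were *B4galnt1* (r = 0.99), *AU020206* (0.98) and *Spsb1* (0.98). For *Olfml3* they were *Tagap* (0.96), *Pmepa1* (0.96) and *Atp2b4* (0.96), and for *Cx3cr1* *Atp2b4* (0.96), *Pmepa1* (0.96) and *Pald1* (0.96). *Fcrls* was most like *Clec4n* (0.98), *Clec4e* (0.98) and *Tlr2* (0.98), *Gpr34* like *Retreg1* (0.98), *Galnt1* (0.98) and *Gm44751* (0.98), *P2ry12* like *Mtmr6* (0.99), *Kansl1l* (0.98) and *Ints12* (0.97), and *P2ry13* like *2900026A02Rik* (0.98), *Inpp4b* (0.96) and *Ncapg2* (0.96). *Siglech* and *Slc2a5* had looser partners, *Gm10134* at 0.93 and *Atl2* at 0.83. The 4 groups drive these values, which say nothing of shared control.

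*P2ry12* and *P2ry13* are neighbours on chromosome 3 (59216272 to 59262871 and 59207892 to 59210882, both on the minus strand), 5389 bases apart. Both lie inside *Med12l*, a Mediator subunit gene on the plus strand that spans 59005825 to 59318682, together with the receptor genes *Gpr171* and *P2ry14*. The genes in this span did not move as 1 block between Act and CTRL. *Gpr171*, a G protein-coupled receptor gene outside the 9, was measured at 77, 47 and 24 in CTRL and 171, 160 and 129 in Act, and rose by 1.75 on the log2 scale (SE 0.49, limma adjusted p = 0.025).

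*P2ry14*, which encodes the UDP-glucose receptor, was at 362, 343 and 349 in CTRL and 278, 274 and 281 in Act and fell by 0.34 on the log2 scale (SE 0.06, limma adjusted p = 0.0011), with no overlap between the groups. *Med12l* itself was at 104, 153 and 153 in CTRL and 97, 110 and 122 in Act (log2 difference -0.30, SE 0.18, limma adjusted p = 0.29). The exons of *P2ry12* and *Med12l* share 9 bases on opposite strands. *P2ry14*, *Med12l* and the *Gpr34* neighbours below were singled out for their position after their values were seen.

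*Gpr34* lies on chromosome X (13632089 to 13640858, plus strand) inside *Cask*, a gene for a membrane-associated scaffold kinase on the minus strand, with *Gpr82* next to it. *Cask* was at 514, 493 and 477 in CTRL and 446, 406 and 444 in Act and fell by 0.20 on the log2 scale (SE 0.05, limma adjusted p = 0.024), the opposite direction to *Gpr34*. *Gpr82* was at 39, 32 and 32 in CTRL and 59, 20 and 37 in Act (log2 difference 0.05, SE 0.37, limma adjusted p = 0.95).

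**Figure D3:**
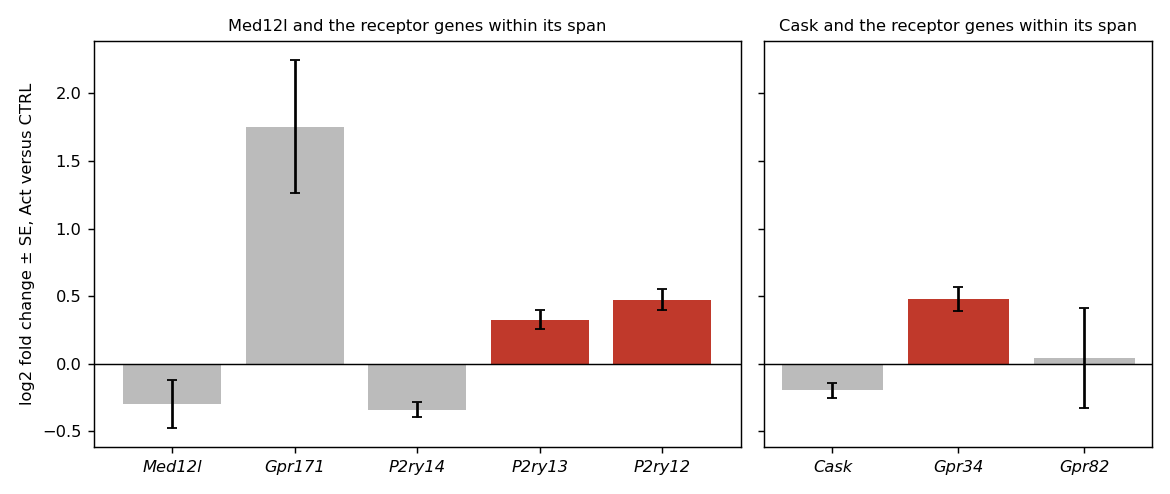
Log2 fold change of Act versus CTRL with its SE for *Med12l* and receptor genes within its span (left) and for *Cask* and receptor genes within its span (right), with the signature genes in red. Within the *Med12l* span *Gpr171*, *P2ry13* and *P2ry12* lie above 0 and *P2ry14* below it, and within the *Cask* span *Gpr34* lies above 0 and *Cask* below it.

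A further list held 32 homeostatic microglia genes, of which 29 were tested. Of these, 3 rose in Act against CTRL and 0 fell at the 2-fold limit, and 10 rose and 1 fell by the limma adjusted p alone, against 5.66% and 20.2% of all tested genes called in either direction by these rules. The 3 called genes were low in level, and the count at the 2-fold limit was 0 with a minimum mean of 50 and 7 with a fold of 1.5. The list's median log2 difference was 0.11, against 0.0036 over all tested genes and 0.54 over the 9 signature genes. *Serpine2*, a protease inhibitor gene, was at 12, 19 and 16 in CTRL and 55, 58 and 46 in Act (log2 difference 1.71, limma adjusted p = 0.00068). *Adgrg1*, an adhesion receptor gene, rose by 1.29, and *Fscn1*, which encodes the actin bundler fascin, by 1.26.

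By the adjusted p alone, *Tgfbr1*, the type I TGF-β receptor, was among those that rose, from 1224, 1083 and 1165 in CTRL to 2268, 1950 and 2149 in Act (log2 difference 0.87, limma adjusted p = 3.8e-06). *C1qa*, a complement subunit gene, rose by 0.42, while *Gas6*, a ligand of TAM receptors, fell by 0.23. *Csf1r* and *Trem2* differed by 0.04 and -0.01 and were not called. Genes under 2-fold named in this and the next paragraph were picked after their values were seen.

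Of 12 transcription factors that define microglia, 10 were tested; *Sall1* and *Sall3*, the former the best known microglial regulator, have no row in the table used here. None of the 10 reached 2-fold. By the limma adjusted p 4 rose and 0 fell, against 10.3% of all tested genes that rose. Among the 4 were *Tal1* (0.64 on the log2 scale), *Mef2a* (0.32) and *Smad3* (0.30). *Irf8* and *Spi1*, which encodes PU.1, differed by 0.06 and 0.07 and were not called. Of 20 disease-associated microglia genes, 2 rose and 0 fell at the 2-fold limit and 4 rose and 6 fell by the adjusted p. The shares of all tested genes in either direction were 5.66% and 20.2%. *Axl*, a TAM receptor gene, rose by 1.69 and *Ch25h*, a cholesterol hydroxylase gene, by 2.10, whereas *Lpl*, lipoprotein lipase, fell by 0.55 and *Spp1*, osteopontin, by 0.20. *Apoe* differed by 0.18 (limma adjusted p = 0.069).

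**Figure D4:**
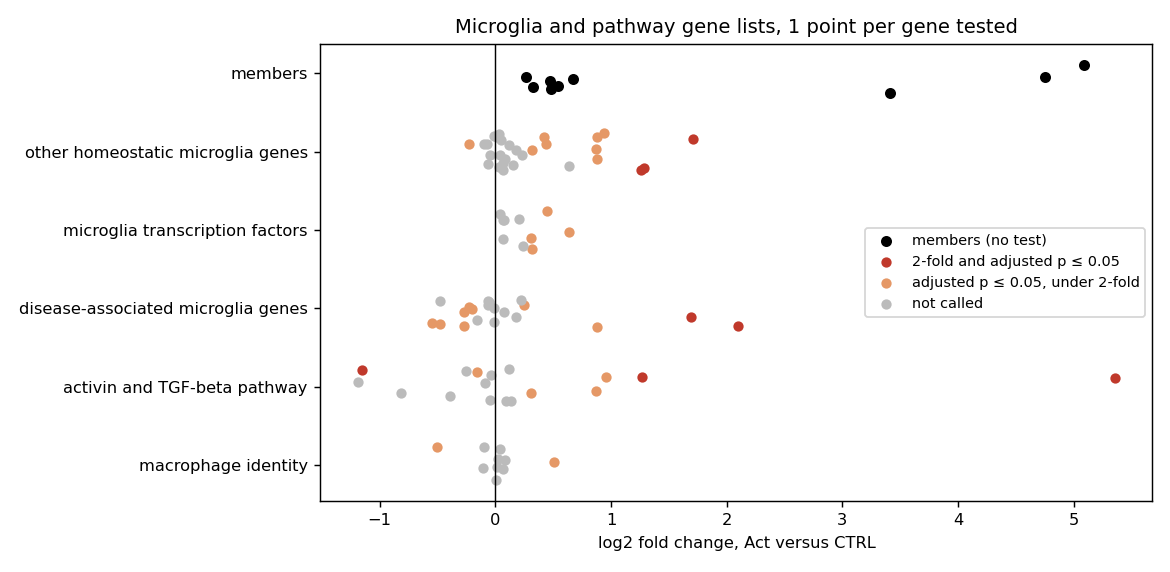
Log2 fold change of Act versus CTRL for each tested gene of 6 lists, with colour for the limma call. The 9 signature genes, in black, are shown without a call. All points of the macrophage identity and transcription factor lists lie within 1 of 0, and *Pmepa1* is the rightmost point of the pathway list at 5.35.

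In the activin and TGF-β pathway list, 17 of 20 genes were tested. At the 2-fold limit 2 rose and 1 fell, and by the limma adjusted p 5 rose and 2 fell. The shares of all tested genes in either direction were 5.66% and 20.2%, for this and the 2 lists that follow. *Pmepa1* rose by 5.35 and *Skil*, a SMAD co-repressor gene, by 1.26, and *Tgfbr3*, the betaglycan co-receptor, fell by 1.16. Among 27 relatives and neighbours of the 9 genes, 23 were tested, with 3 that rose and 0 that fell at the 2-fold limit. They were *Gpr171*, *Siglece* (1.40), a sialic acid-binding lectin like *Siglech*, and *Slc2a6* (1.01), a sugar transporter like *Slc2a5*. That count was 1 without CTRL replicate 3. Of the 10 macrophage identity genes 0 were called at 2-fold, and by the adjusted p *Aif1* rose by 0.51 and *Mrc1* fell by 0.51. In the 3 comparisons between groups other than Act, 0 genes of any list were called with limma.

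Markers of other cells that marrow cultures can hold moved with activin A in part. Of 6 neutrophil and progenitor markers 0 rose and 2 fell at the 2-fold limit. For this and the marker lists below, 5.66% of all tested genes were called in either direction without the replicate block. The summed level of the 6 markers was 328 to 476 in Act and 404 to 666 in CTRL. *Mpo*, the granule enzyme myeloperoxidase, was at 80, 162 and 54 in CTRL and 15, 42 and 15 in Act (log2 difference -2.02, limma adjusted p = 0.0092), and *Elane*, neutrophil elastase, fell by 1.64. That count was 1 without CTRL replicate 2, without Act replicate 1 or without Act replicate 3. Of 4 tested conventional dendritic cell markers, *Cd209a* fell by 2.27. With the replicate block 1 marker was called higher and 1 lower. Without CTRL replicate 2 the count called in either direction was 2, and *Xcr1* had a mean of 2.33 in CTRL.

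Of 5 classical monocyte markers, *Ccr2*, the CCL2 receptor, rose by 1.04 from 633, 508 and 272 in CTRL to 932, 873 and 940 in Act (limma adjusted p = 0.043). The call was lost without any 1 of CTRL replicates 2 and 3, the 3 Act replicates, Act+FST replicate 2 or FST replicate 2. The summed level of the monocyte list was 1220 to 1469 in Act and 647 to 1139 in CTRL, so it lay higher in Act with no overlap, as *Cx3cr1* did, a gene monocytes also carry. The part of the monocyte, progenitor and dendritic cell markers in the values of the 9 genes was not tested.

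None of 2 tested stromal, 5 tested plasmacytoid dendritic cell and 3 tested megakaryocyte markers was called in Act against CTRL with limma, while with the replicate block 1 stromal marker, *Col1a2*, and 1 plasmacytoid marker, *Ccr9*, were. The summed stromal level was 55, 4 and 3 in CTRL and 200, 20 and 12 in Act. It was 90, 3 and 12 in Act+FST and 107, 7 and 9 in FST, so replicate 1 was highest in all 4 groups. The summed megakaryocyte level was 349 to 442 in Act and 329 to 423 in CTRL. The stromal *Pdgfra* was at 0 in all CTRL libraries.

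*Siglech* is itself known from plasmacytoid dendritic cells, and it was compared with the 6 markers of that list in the table. Replicate 2 was the highest library in all 4 groups for *Siglech*, *Spib*, *Ly6d* and *Ccr9*, as it was for *Mpo* and *Elane*, but in 2 groups for *Cox6a2* and *Pacsin1* and in 0 groups for *Bst2*, *P2ry12* and *P2ry13*. Over the 12 libraries r with *Siglech* was 0.83 for *Spib*, 0.73 for *Ccr9*, 0.64 for *Ly6d*, 0.13 for *Pacsin1*, 0.085 for *Bst2* and -0.41 for *Cox6a2*, so 3 of the 6 markers ran with it. *Spib*, a transcription factor of these cells, was at 11, 43 and 10 in CTRL and 10, 44 and 27 in Act. The part of plasmacytoid cells in the *Siglech* level was not tested. After removal of the group means, *Siglech* had r = -0.78 with *P2ry12* and -0.87 with *P2ry13*. Stretches of at least 75 bases with at least 95% identity were shared by *Siglech* with 12 other genes and by *Olfml3* with 2, none longer than 91 bases, and reads that map to several places were left out by the authors, so the levels of these 2 genes may be understated there.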

How the data were processed

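RNA-seq libraries of BMDMs (12 libraries, 4 groups of 3) were analysed from the deposited table of gene values. Per the study's methods and the labels, the authors trimmed the reads with Trimmomatic 0.39, aligned them to mm10 with STAR 2.7.9a, counted exonic reads per gene with featureCounts 2.0.2 without reads that map to several genes or places, and named DESeq2 1.30.0 for their own tests. The deposited signal is a normalized count rounded to whole numbers; the scaling formula and the strand setting of the counting are not given in the sources used here, so no count test was run and no counting interval was given. Strand matters for genes inside others, such as *P2ry12* and *Gpr34*.

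Values were taken as log2(normalized count + 1), which understates the change of low genes. Genes with a mean of at least 5 were tested over all 12 libraries under R 4.3.3 with version 3.58.1 of limma, in which 4 group means and a trended empirical Bayes prior were fitted, with Benjamini-Hochberg adjustment over all 14318 genes. A call needed at least 2-fold and an adjusted p of at most 0.05. The script was tested on simulated data. Lengths, positions and overlaps came from GENCODE M21 (18359 of 18376 identifiers matched), and promoters from RefSeq on GRCm38.p6. The members, the lists and the tests were chosen with earlier results of these data known. Named list genes were up to 4 called rises and 4 called falls per list in Act versus CTRL, plus cell type markers at or above the minimum mean; *Trem2*, *Irf8*, *Spi1*, *Apoe*, *Med12l*, *Gpr82*, *Xcr1*, *Pdgfra* and *Pacsin1*, and list genes past the adjusted p but under 2-fold, were named outside this rule after their values were seen. Some list genes are counted but not reported here by name. The replicate numbers paired the libraries: deviations from the group means had r from 0.157 to 0.481 in all 18 same-numbered pairs and a mean of -0.155 in 36 others, so a fit with the replicate number as a block was run as an alternative. Other alternatives were a pseudocount of 0.5 or 5, a minimum mean of 50 or none, a fold of 1.5, TMM factors, leaving out each library and, chosen after seeing the data, a correction for reads that share a start position and a block without the libraries numbered 2.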

Additional observations from a re-analysis of the deposited data

Results flagged for a closer look

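Of 134 list genes and members examined, 7 (0 of them signature genes) had an activin A effect in opposite directions in every replicate pair without FST288 (Act minus CTRL) and with it (Act+FST minus FST). The difference was not tested. The share of all genes with this pattern was not computed, so nothing is read from the count. In Act versus CTRL their limma adjusted p ran from 0.091 (*Il10ra*) to 0.91 (*Ptprc*). With the replicate block it was 0.0073 for *Slco2b1*, 0.017 for *Ccr9* and 0.018 for *Il10ra*. For *Ptprc* the log2 differences were 0.0169 without and -0.0296 with FST288. *Mertk* differed by 0.0696 without FST288 and by -0.0531 with it. For *Il10ra* the log2 differences were 0.154 without and -0.0358 with FST288. *Slco2b1* differed by 0.233 without FST288 and by -0.0421 with it. For *Rhob* the log2 differences were 0.0296 without and -0.07 with FST288. *Irf8* differed by 0.0622 without FST288 and by -0.0198 with it. For *Ccr9* the log2 differences were 1.08 without and -0.528 with FST288.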

How the results depend on the processing

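The count of signature genes called was 3 in both Act comparisons and 0 in the other 3 under every alternative run. With a minimum mean of 50 the genes called over the whole table were 364 in Act versus CTRL and 378 in Act versus Act+FST, against 811 and 834, and with a fold of 1.5 they were 1284 and 1300; for the lists other than the signature the count went from 15 to 8 and to 23. Fewer genes are tested with the first and more pass with the second by construction. With the replicate block, 6 genes of the table were called in Act+FST versus CTRL and 2 in Act+FST versus FST, against 0 and 0, and the block changed no call of the 9 genes other than the adjusted p of *Siglech*; the block without all libraries numbered 2 called 1 gene in Act+FST versus FST, and leaving out 1 library called 0 to 1.

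Differences close to 0 changed sign, none of them called. With the block and without the libraries numbered 2, Act+FST versus CTRL was 0.34 for *Tmem119* and 0.22 for *Cx3cr1*, FST versus CTRL was 0.26 for *Tmem119*, and Act+FST versus FST was -0.30 for *Slc2a5*. Leaving out 1 library in turn, Act+FST versus CTRL ran from -0.70 to 0.40 for *Tmem119*, -1.23 to 0.084 for *Cx3cr1*, -0.046 to 0.11 for *P2ry12*, -0.061 to 0.068 for *Gpr34* and -0.23 to 0.33 for *Siglech*. FST versus CTRL ran from -0.15 to 0.0065 for *P2ry12*, -0.086 to 0.018 for *Fcrls* and -0.53 to 0.10 for *Siglech*, and Act+FST versus FST ran from -0.021 to 0.55 for *Siglech*, -0.036 to 0.71 for *Slc2a5* and -0.0030 to 0.17 for *Gpr34*. The cause was not tested.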
